A study of Mus musculus with 10 samples.

Results

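The genes of G2 and mitosis were followed as a group of 38 mouse genes in RNA from whole melanoma tumors taken 4 days after the cells were injected into C57BL/6 mice. The list held cyclins, kinases, checkpoint, kinetochore, spindle and cytokinesis genes known from their roles in cell division. All 38 were among the 45706 genes counted, all were protein-coding, and all passed the filter on low counts, which left 14550 genes. They lay on 16 chromosomes.

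Hosts were 8 weeks old. The injected cells were a C57BL/6 melanoma line driven by mutant Braf and lacking p16INK4a, a CDK inhibitor of G1, and these features were common to all groups. The Ptgs+/+ cells kept both cyclooxygenase genes, while the Ptgs-/- cells had been made deficient in Ptgs1 and Ptgs2, which encode COX-1 and COX-2, by CRISPR/Cas9. The groups were 4 Ptgs+/+ tumors and 3 Ptgs-/- tumors of untreated mice, and 3 Ptgs-/- tumors of mice depleted of NK cells. By the labels, depletion used 200 µg of the anti-NK1.1 antibody PK136 and 30 µg of an antibody to asialo GM1 on days 0 and 2. One cell line stood behind every tumor, so the comparisons are about that line and its edited derivative. Whether the derivative was a single clone is not given in the sources used here. The labels do not say that the libraries of a group came from separate mice, and the p-values below measure the spread between these libraries.

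Cells enter mitosis when cyclin B and CDK1 are switched on, and the chromosomes are then captured by the spindle, held back by the spindle checkpoint until all are attached, and parted once the anaphase-promoting complex (APC/C) destroys cyclin B and securin. Most genes of this machinery are transcribed late in the cycle by the MuvB complex with B-MYB and FOXM1, and are kept silent in resting cells by the DREAM complex. Both complexes contact the CHR, a promoter element near the start of transcription, and NF-Y binds CCAAT boxes beside it. In a tumor, RNA of these genes comes from whichever cells are dividing, malignant or not. Fewer cells of a type and less RNA per cell cannot be told apart in bulk samples.

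The libraries held between 8150556 and 12839174 counts, read from the 3′ ends of transcripts. Levels are CPM, counts per 1000000 counts of the library, and 3 counts amounted to 0.234 to 0.368 CPM. Libraries of 1 group differed by 7.41 to 30.1 in chi-square per degree of freedom over genes, so no library was counted more than once. Of the targeted genes, Ptgs+/+ tumors had 152 ± 17.5 CPM of Ptgs1 and 253 ± 110 of Ptgs2 (SD, n = 4). Untreated Ptgs-/- tumors had 94.0 ± 15.0 and 43.0 ± 27.6 (SD, n = 3). Ncr1, a receptor of NK cells, had 0 counts in each library of NK-depleted mice. Of 8 melanocytic genes, Tyr, Tyrp1 and Mlana had 3 or fewer counts in every library, while Mitf was at 21.7, 28.9 and 26.6 CPM as means of the 3 groups. The titles carry 1 of 2 codes, and the labels do not say what the codes mark. The second was borne by Ptgs+/+ replicate 4 and untreated Ptgs-/- replicate 3, and the first by the other 8 libraries.

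Against Ptgs+/+ tumors, all 38 genes had a negative log2 fold change in untreated Ptgs-/- tumors, as had 50.7% of all genes. The fall passed a Benjamini-Hochberg false discovery rate (FDR) of 0.05 for 35 of them and 0 were higher, by edgeR's quasi-likelihood test over all genes tested, of which 11% were called lower and 12.1% higher. The median log2 fold change of the 38 genes was −0.86, or 1.81-fold lower, with a range from −1.31 to −0.42, while the median of all genes was −0.01. In 30 of the 38 genes every Ptgs-/- library lay below every Ptgs+/+ library, which 12.5% of all genes did. The changes were of moderate size. The stricter rule in the study's methods adds a limit of 1.5 on the log2 fold change, and by it 0 of the 38 genes were called, where 1.01% of all genes were called lower.

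The mean log2(CPM + 1) over the 38 genes was 6.27, 6.44, 5.89 and 6.07 in the Ptgs+/+ libraries, 5.33, 5.42 and 5.44 in the untreated Ptgs-/- libraries, and 5.73, 5.82 and 5.37 after NK cell depletion. The Ptgs-/- libraries were tightly grouped and all below the Ptgs+/+ libraries, and the NK-depleted ones lay between except for replicate 3, which sat among the untreated Ptgs-/- libraries. Of all counts in Ptgs+/+ tumors, 0.468% ± 0.0717 fell on the 38 genes (SD, n = 4), where the share was 0.255% ± 0.0143 in untreated and 0.308% ± 0.0513 in NK-depleted Ptgs-/- tumors (SD, n = 3 each). Ptgs+/+ replicate 2 was the highest of the 10 libraries for 27 of the genes. Ptgs-/- replicate 1 was the lowest for 17, and NK-depleted replicate 3 for 10.

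**Figure D1:**
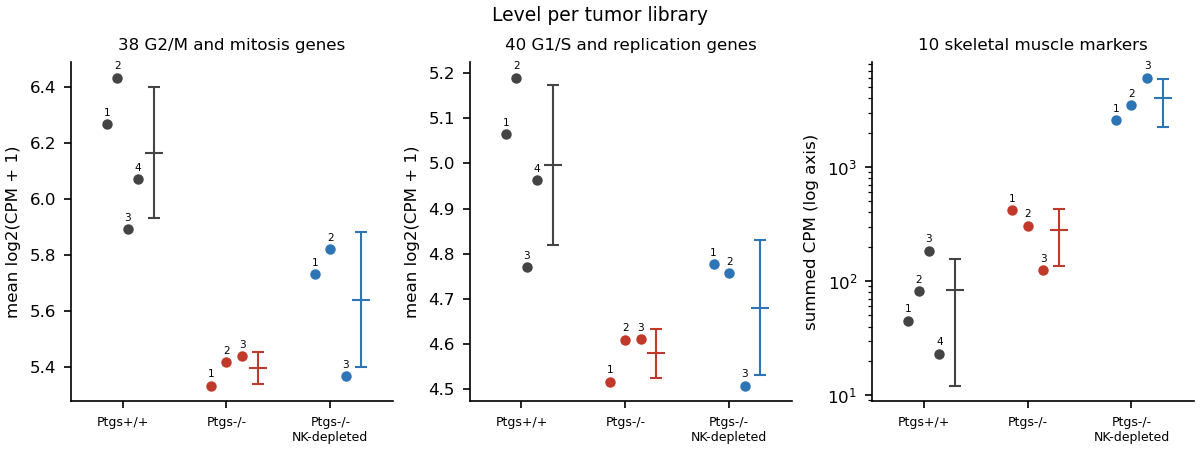
Mean log2(CPM + 1) over the 38 G2/M and mitosis genes (left) and over 40 G1/S and replication genes (middle), and summed CPM of 10 skeletal muscle markers on a log axis (right), for each of the 10 tumor libraries. Points carry the replicate number and bars give the mean ± SD of the group. The 3 Ptgs-/- libraries lie at 5.33 to 5.44 on the left, below all 4 Ptgs+/+ libraries, and NK-depleted replicate 3, the lowest of its group there, has the most muscle RNA, 6062 CPM.

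Within the first title code, 24 of the 38 genes were called lower, where 6.69% of all genes were, and their median log2 fold change was −0.92. The second code holds 1 library of each genotype and allows no test. In that pair 37 of the 38 genes were lower in the Ptgs-/- tumor, with a median difference of −0.69 on the log2 scale, where 49.2% of all genes were lower. The exception was Nusap1, singled out after its values had been seen, at 53.3 CPM in the Ptgs+/+ and 56.4 in the Ptgs-/- library.

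Promoter windows of RefSeq on GRCm38.p6, the build of the counts, were matched by symbol for 32 of the 38 genes. A window holds 250 bases before the start of the gene and 50 after it. The letters of a CHR, TTTGAA or TTCGAA on either strand, were found in 26 of the 32 windows (81.2%), against 19.4% of all 27025 promoters. CCAAT on either strand was found in 25 (78.1%), against 37.9%. Both were found in 23 (71.9%), against 7.70%, and the motifs can overlap by at most 1 base. In 24 of the 26 windows with a CHR, one began between −30 and +45 from the start. No CHR can begin after +45 in these windows. The share of all promoters with a CHR between these bounds was not counted, so the position has no background here. The following stretches of 120 bases, each ending just upstream of the first transcript start in RefSeq or GENCODE M21, are 4 of the 6 that hold both elements before any transcribed base, the others being those of Ect2 and Ckap2l. They were chosen by hand to show genes of different roles. Capitals mark CHR letters and CCAAT boxes on either strand, and each stretch reads 5′ to 3′ along the gene.
Top2a, chr11:99024190-99024309, minus strand: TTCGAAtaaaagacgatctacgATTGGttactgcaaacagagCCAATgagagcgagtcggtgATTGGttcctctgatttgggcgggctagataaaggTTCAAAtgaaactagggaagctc
Cdk1, chr10:69352939-69353058, minus strand: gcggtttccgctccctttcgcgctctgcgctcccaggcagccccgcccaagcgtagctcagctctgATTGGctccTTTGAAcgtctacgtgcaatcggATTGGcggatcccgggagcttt
Kif11, chr19:37376262-37376381, plus strand: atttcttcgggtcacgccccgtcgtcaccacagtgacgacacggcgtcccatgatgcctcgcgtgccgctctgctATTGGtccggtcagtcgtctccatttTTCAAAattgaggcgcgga
Cdc20, chr4:118437353-118437472, minus strand: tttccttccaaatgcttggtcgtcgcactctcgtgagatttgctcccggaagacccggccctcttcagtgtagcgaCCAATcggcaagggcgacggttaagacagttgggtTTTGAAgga
Genes with CHR letters in the window had a median log2 fold change of −0.86 (n = 26) in Ptgs-/- against Ptgs+/+ tumors, and those without had −0.90 (n = 6). The difference between these medians was not tested. The letters describe these windows and are not evidence of binding.

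**Figure D2:**
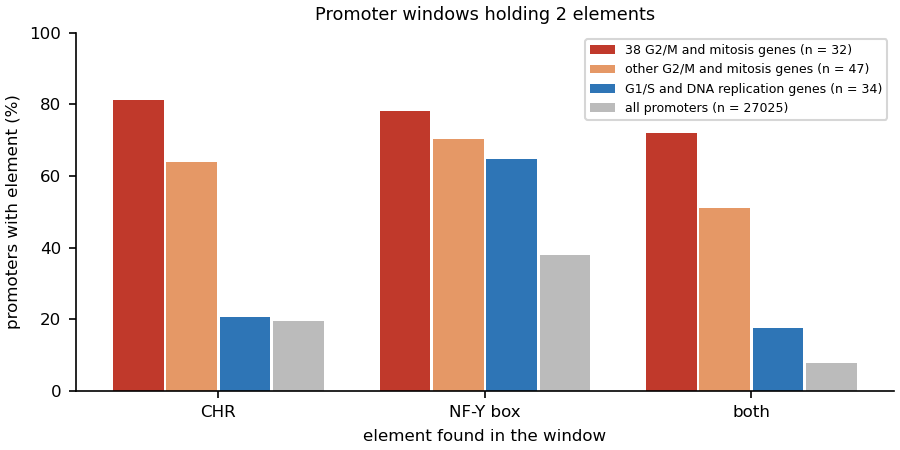
Share of promoter windows of 300 bases, in percent, that hold the letters of a CHR, of the CCAAT box bound by NF-Y (labelled NF-Y box) or of both, for the 38 G2/M and mitosis genes, the other G2/M and mitosis genes, the G1/S and replication genes and all promoters, with n the number of windows. The CHR is in 81.2% of the 38 genes' windows and 20.6% of the G1/S windows, while the CCAAT box is in 78.1% and 64.7%.

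Genes of mitotic entry showed the largest median change, at −1.10 on the log2 scale, and 7 of 7 were called lower in Ptgs-/- tumors. Ccna2 (ENSMUSG00000027715, chr3:36564865-36572150 on GRCm38) encodes cyclin A2, which drives S phase and the approach to mitosis. Its level was 145, 185, 78.0 and 133 CPM in Ptgs+/+ tumors, 59.5, 56.4 and 54.5 in Ptgs-/- tumors and 81.2, 80.3 and 52.0 in NK-depleted ones. The Ptgs-/- libraries were all below the lowest Ptgs+/+ library, replicate 3. This was the largest fall among the 38 genes, −1.31 ± 0.26 (log2 fold change ± SE, adjusted p = 0.00398, edgeR's quasi-likelihood test). Ccnb1 (ENSMUSG00000041431, chr13:100778650-100786570), the cyclin that activates CDK1 for mitosis, was at 138, 166, 98.1 and 119 CPM, then 52.6, 61.1 and 55.4, and 76.1, 75.5 and 50.9 in the same order of groups. No Ptgs-/- library of either host reached the lowest Ptgs+/+ library. Its log2 fold change was −1.27 ± 0.20 (SE, adjusted p = 0.00112, same test).

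Cdk1 (ENSMUSG00000019942, chr10:69335146-69352938), the kinase of mitotic entry, was at 464, 562, 274 and 388 CPM in Ptgs+/+ tumors, 203, 203 and 210.5 in Ptgs-/- tumors and 299, 294 and 211 in NK-depleted ones. The untreated Ptgs-/- libraries were nearly alike and below all others, and 2 of the NK-depleted libraries rose above Ptgs+/+ replicate 3. The log2 fold change between the genotypes in untreated hosts was −1.10 ± 0.22 (SE, adjusted p = 0.00415, edgeR's quasi-likelihood test). Foxm1 (ENSMUSG00000001517, chr6:128362967-128376146), the transcription factor that activates many of the other genes, was at 106, 137, 94.7 and 95.6 CPM, 49.9, 46.9 and 56.8, and 70.4, 70.3 and 46.4. Both Ptgs-/- groups were below every Ptgs+/+ library. Its fall was 2.21-fold (log2 fold change −1.14 ± 0.18 SE, adjusted p = 0.00135, same test). Ccnb2, the second B-type cyclin, fell by 1.01 on the log2 scale, and Cdca3, a trigger of mitotic entry, by 0.87. Cdc25c, a phosphatase that activates CDK1, fell by 0.64, the smallest change of this role, from levels under 10 CPM in every library. Its call was lost when any of 4 libraries was left out, Ptgs+/+ replicate 1 or 2 or Ptgs-/- replicate 2 or 3, with an adjusted p of up to 0.0818 in edgeR's quasi-likelihood test.

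Of 5 genes of mitotic kinases and the chromosomal passenger complex, which corrects attachments of chromosomes to the spindle, 4 were called lower, with a median of −1.04. Plk1 (ENSMUSG00000030867, chr7:122159439-122169873), the Polo-like kinase of centrosomes and mitotic entry, was at 356, 480.0, 310.3 and 308 CPM in Ptgs+/+ tumors, 146, 160.2 and 169 in Ptgs-/- tumors and 236, 243 and 165 in NK-depleted ones. All Ptgs-/- libraries of either host lay below all Ptgs+/+ libraries. The log2 fold change was −1.26 ± 0.19 (SE, adjusted p = 0.000867, edgeR's quasi-likelihood test). Birc5 (ENSMUSG00000017716, chr11:117849251-117855743) encodes survivin, a passenger complex subunit, and was at 334, 388, 304 and 319.8 CPM, 163, 205 and 173, and 234, 281 and 184. Every Ptgs+/+ library was again above every Ptgs-/- one, and Birc5 fell by 0.96 (SE 0.16, adjusted p = 0.00152, same test). Aurka, the spindle pole kinase, fell by 1.22 and Cdca8, which encodes the subunit borealin, by 1.04.

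Aurkb (ENSMUSG00000020897, chr11:69045647-69051664), the kinase of the passenger complex, was the exception. Its level was 19.9, 22.4, 5.27 and 24.4 CPM in Ptgs+/+ tumors, 12.4, 11.9 and 10.2 in Ptgs-/- tumors and 16.1, 17.9 and 10.8 in NK-depleted ones. Ptgs+/+ replicate 3 was the lowest of all 10 libraries and the other 3 Ptgs+/+ libraries were the highest. The log2 fold change of −0.70 ± 0.40 (SE) did not pass the test (adjusted p = 0.235, edgeR's quasi-likelihood test). Without Ptgs+/+ replicate 3 it was −1.01 (adjusted p = 0.0036, same test). Kif2c and Racgap1 were the other 2 genes that had missed the threshold. Leaving that library out brought them to −0.87 and −0.50 (adjusted p = 0.00368 and 0.0403, edgeR's quasi-likelihood test). Then 38 of 38 were called, where 13.4% of all genes were called lower. This library was singled out after its values had been seen. Without Ptgs+/+ replicate 1 or Ptgs-/- replicate 3 the count was 26, where 7.65% and 7.13% of all genes were called lower.

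**Figure D3:**
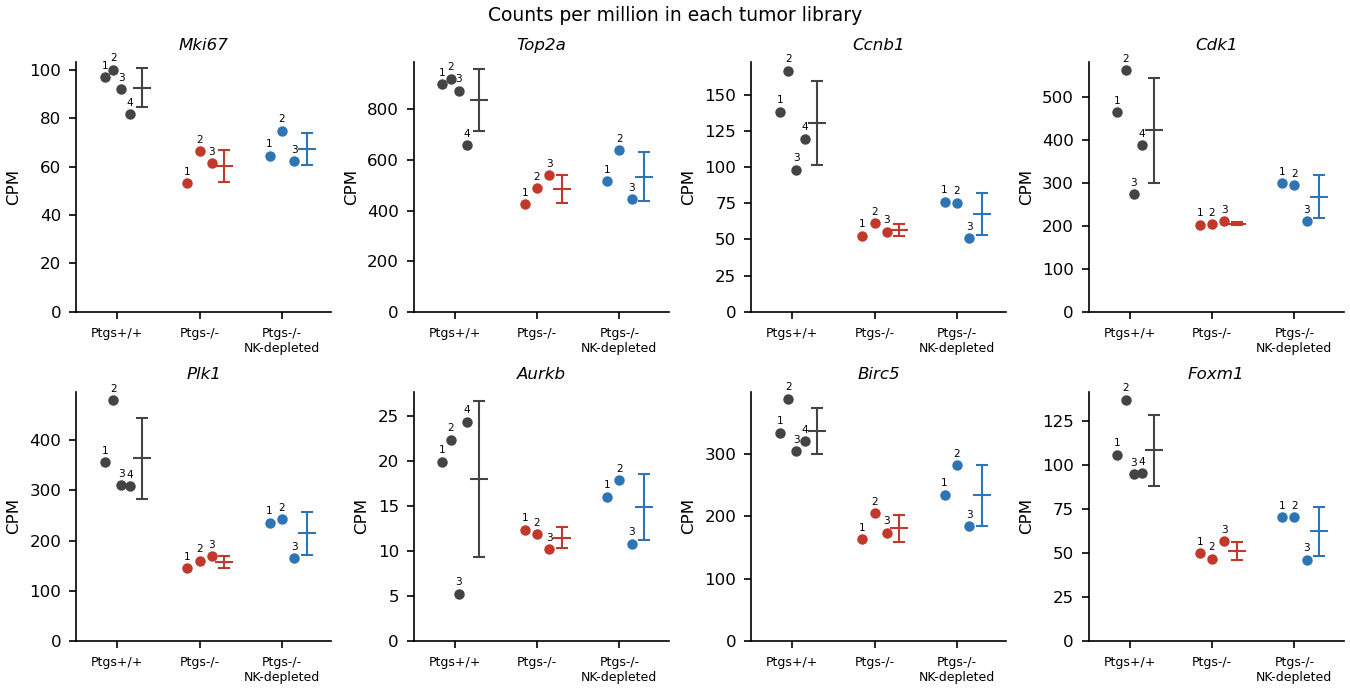
CPM of Mki67, Top2a, Ccnb1, Cdk1, Plk1, Aurkb, Birc5 and Foxm1 in each tumor library, with replicate numbers beside the points and bars for the mean ± SD of 4, 3 and 3 libraries. In 7 of the 8 genes every untreated Ptgs-/- library lies below every Ptgs+/+ library, and Aurkb is the exception, where Ptgs+/+ replicate 3 is at 5.27 CPM.

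All 6 spindle checkpoint and APC/C genes were called lower, with a median of −0.79. Cdc20, the activator of the APC/C, fell by 1.04, Bub1b, which encodes the checkpoint protein BUBR1, by 0.98, and Ttk, the checkpoint kinase MPS1, by 0.85. Bub1, Mad2l1 and Ube2c, the last a ubiquitin-conjugating enzyme of the APC/C, fell by 0.72, 0.62 and 0.62. Bub1 and Mad2l1 overlapped between the genotypes and stood close to the threshold, with adjusted p of 0.0461 and 0.0434 (edgeR's quasi-likelihood test). Their calls were lost in 6 and 9 of the 10 fits with a library left out, with an adjusted p of up to 0.177 without Ptgs-/- replicate 3 for Bub1 and 0.119 without Ptgs-/- replicate 1 for Mad2l1 (same test). Bub1b lost its call without Ptgs-/- replicate 1 or 2 (adjusted p up to 0.0802), and Ube2c without Ptgs-/- replicate 3 (adjusted p = 0.0681, same test).

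Of the centromere and kinetochore genes, 5 of 5 were called lower, with a median of −0.84, and none overlapped between the genotypes. Cenpe (ENSMUSG00000045328, chr3:135212537-135273611), a kinesin that brings chromosomes to the metaphase plate, was at 191, 207, 190.0 and 148 CPM in Ptgs+/+ tumors, 78.6, 85.2 and 99.1 in Ptgs-/- tumors and 99.3, 106 and 92.5 in NK-depleted ones. Both Ptgs-/- groups were far below the Ptgs+/+ libraries, the lowest of which was replicate 4. The log2 fold change was −1.13 ± 0.13 (SE) with the smallest adjusted p of the 38 genes, 0.000277 (edgeR's quasi-likelihood test). Cenpa, the histone variant that marks centromeres, fell by 0.86, Cenpf by 0.83, and Nuf2 and Ndc80, partners in the microtubule-binding NDC80 complex, by 0.84 and 0.63. Only Cenpa among these lost its call when a library was left out (Ptgs+/+ replicate 1 or Ptgs-/- replicate 2 or 3, adjusted p up to 0.0646, edgeR's quasi-likelihood test).

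Spindle motors and microtubule assembly genes had the smallest median of the 7 roles, −0.67, with 6 of 7 called lower. Kif4, a chromosome-bound kinesin, fell by 0.86, Hmmr by 0.81 and Tpx2, which activates Aurora A on the spindle, by 0.81. Nusap1, Kif11, the kinesin that pushes spindle poles apart, and Ckap2l fell by 0.55, 0.54 and 0.52. Kif11 overlapped between the genotypes and lost its call in 9 of the 10 fits with a library left out (without Ptgs-/- replicate 3 at an adjusted p of 0.144, the highest, by edgeR's quasi-likelihood test). Nusap1 lost it in 4 (Ptgs+/+ replicate 1 or 2, Ptgs-/- replicate 1 or 2) and Ckap2l in 3 of these fits (Ptgs+/+ replicate 1 or 2, Ptgs-/- replicate 3), with adjusted p of up to 0.0957 and 0.0988. Kif2c, the kinesin MCAK that takes microtubules apart, had a log2 fold change of −0.67 and was not called (adjusted p = 0.084, edgeR's quasi-likelihood test).

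Among 6 cytokinesis genes, 5 were called lower, with a median of −0.90. Ect2 (ENSMUSG00000027699, chr3:27097222-27153878), which activates RhoA at the cleavage site, was at 67.8, 87.1, 35.3 and 54.4 CPM in Ptgs+/+ tumors, 28.1, 23.6 and 25.8 in Ptgs-/- tumors and 35.8, 36.1 and 27.8 in NK-depleted ones. Untreated Ptgs-/- libraries were all below the Ptgs+/+ ones, the lowest of which was replicate 3. The fall was 2.47-fold (log2 fold change −1.31 ± 0.26 SE, adjusted p = 0.00414, edgeR's quasi-likelihood test). Racgap1, which with the kinesin Kif23 forms centralspindlin and recruits ECT2, had the smallest log2 fold change of the 38 genes, −0.42, and was not called (adjusted p = 0.0976, same test), while Kif23 itself fell by 0.93. Prc1, which bundles the microtubules of the central spindle, fell by 0.92, Kif20a by 0.89 and Anln, the scaffold protein anillin, by 0.89, with Racgap1 and Anln overlapping between the genotypes. Kif20a lay at or under 4.92 CPM throughout and lost its call in 3 of these fits (Ptgs+/+ replicate 1, Ptgs-/- replicate 1 or 3, adjusted p up to 0.0731), as did Anln in 4 (Ptgs+/+ replicate 1 or 2, Ptgs-/- replicate 2 or 3, adjusted p up to 0.0991, edgeR's quasi-likelihood test).

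The chromosome structure genes were the 2 most used markers of dividing cells. Mki67 (ENSMUSG00000031004, chr7:135689784-135716361), which encodes the Ki-67 antigen that coats mitotic chromosomes, was at 96.8, 100, 92.0 and 81.5 CPM in Ptgs+/+ tumors, 53.0, 66.3 and 61.5 in Ptgs-/- tumors and 64.5, 74.8 and 62.3 in NK-depleted ones. Top2a (ENSMUSG00000020914, chr11:98992943-99024189), the topoisomerase that untangles sister chromatids, was at 898, 921, 873 and 658 CPM, 426, 489 and 540.2, and 517, 639.6 and 446. For both genes all Ptgs-/- libraries of either host lay below all Ptgs+/+ libraries. Between untreated tumors the log2 fold change was −0.68 ± 0.12 for Mki67 and −0.85 ± 0.16 for Top2a (SE, adjusted p = 0.00256 and 0.00327, edgeR's quasi-likelihood test).

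**Figure D4:**
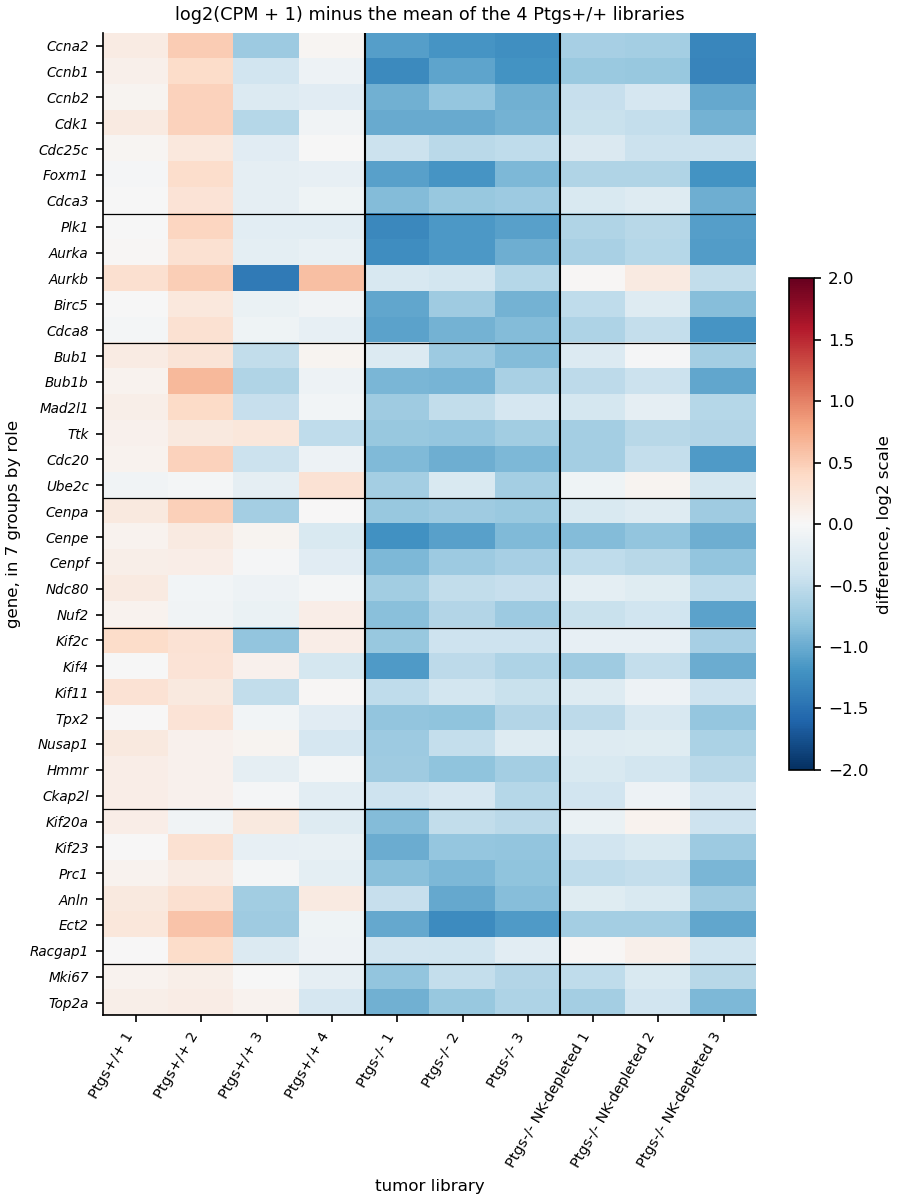
Each of the 38 genes (rows, in 7 groups by role) in each of the 10 tumor libraries (columns), as log2(CPM + 1) minus the mean of the 4 Ptgs+/+ libraries, with blue for lower and red for higher. The 3 untreated Ptgs-/- columns are blue throughout, NK-depleted replicates 1 and 2 are paler, and NK-depleted replicate 3 is the lowest of its group for 35 of the genes.

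Several sets of cell type markers also differed between Ptgs-/- and Ptgs+/+ tumors of untreated mice, some rising while the 38 genes fell. The summed level of 10 NK cell markers was 25.9 to 55.9 CPM in Ptgs+/+ and 120 to 274 in Ptgs-/- libraries, and 8 of the 9 tested were called higher. For T cell markers it was 8.65 to 11.6 against 27.5 to 78.4 CPM with 8 of 9 called higher, for macrophage markers 1828 to 2168 against 2886 to 4454 CPM with 6 of 10, and for fibroblast markers 7856 to 10923 against 14102 to 17501 CPM with 5 of 10. Summed neutrophil markers were lower in Ptgs-/- tumors, as the 38 genes were, going from 378 to 612 down to 70.1 to 101 CPM. Of these markers 6 of 8 were called lower, and Ly6g was at 0 in these Ptgs-/- libraries. Endothelial markers were at 388 to 438 and 149 to 333 CPM, with 3 of 8 called lower. Of muscle markers 4 of 10 were called higher, of adipocyte markers 0 of 8 passed, with 0 at an unadjusted p of 0.05, and of keratinocyte markers 1 of 5 was lower (edgeR's quasi-likelihood test). Their part in the fall of the 38 genes was not tested.

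Genes of the same phase outside the list, chosen like the list with earlier results known, fell with it. Of 60 other G2/M and mitosis genes 58 were tested, and 42 were lower and 0 higher, at a median log2 fold change of −0.76. Of all genes, 11% were called lower in this comparison. By mean CPM the 3 highest were Cks1b, a subunit of CDK complexes (−1.07), Smc4 of condensin (−0.91) and Cdc25b, a CDK-activating phosphatase (−0.55). The largest falls were those of Ska1, which couples kinetochores to microtubules (−1.26), and Trip13, a regulator of the checkpoint (−1.18). Of 40 G1/S and DNA replication genes 39 were tested, and 21 were lower and 0 higher, with a median of −0.59. Among them the 3 highest by mean CPM were Lig1, the replicative DNA ligase (−0.66), Dnmt1 (−0.68) and the helicase subunit Mcm6 (−0.63), and the largest falls were those of Tk1 (−1.10) and Rrm2 (−1.07), both of nucleotide supply. The 38 genes had a larger share called lower and a larger median fall than the replication genes, a difference that was not tested.

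In Ptgs-/- tumors, depletion of NK cells left the 38 genes with a small and uncalled difference. All 38 had a positive log2 fold change in NK-depleted against untreated hosts, as had 52% of all genes, with a median of 0.28 and a range from 0.05 to 0.66, and Kif4, the lowest, turned negative with the title code as a term. The call passed for 0 of 38 in edgeR's quasi-likelihood test and for 0 in DESeq2, where edgeR called 0.921% of all genes higher and 0.515% lower. At an unadjusted p of 0.05, 7 of the 38 were higher by edgeR, against 4.32% of all genes, and 5 by DESeq2. These 7 were Plk1, Aurka, Birc5, Ube2c, Hmmr, Kif20a and Kif23, of which Kif20a had the largest log2 fold change (0.66 ± 0.27 SE) and Hmmr the lowest adjusted p, 0.223 (edgeR's quasi-likelihood test). In 6 genes, Cdk1, Cdc25c, Ttk, Hmmr, Kif20a and Kif23, every NK-depleted library was above every untreated one, as in 7.16% of all genes.

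The 95% intervals give the range of differences that these tumors allow. For Plk1 the log2 fold change was 0.47 with an interval from 0.05 to 0.89, and for Cdk1 it was 0.41, from −0.08 to 0.91. Ccnb1 was at 0.29, from −0.16 to 0.73, and Foxm1 at 0.31, from −0.10 to 0.73. For Mki67 the value was 0.18, from −0.10 to 0.47, and for Top2a 0.17, from −0.20 to 0.54. Birc5 was at 0.40, from 0.04 to 0.76, and the interval of Aurkb was the widest, from −0.52 to 1.34. These intervals are not corrected for the number of genes.

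NK-depleted replicate 3 set much of this comparison. It was the lowest of its group for 35 of the 38 genes, and without it the median difference was 0.42 and 16 genes had an unadjusted p at or under 0.05, against 4.18% of all genes, though the count of calls remained 0 (edgeR's quasi-likelihood test). Without NK-depleted replicate 2 the median was 0.19. The number at that unadjusted p was then 1, against 2.91% of all genes. It was also 1 without untreated Ptgs-/- replicate 3 (4.81% of all genes), and 2 without NK-depleted replicate 1 (3.06%) or untreated Ptgs-/- replicate 1 (5.33%), numbers near the shares of all genes. Within the first title code, to which all NK-depleted tumors belong, the median was 0.28, 0 genes were called and 2 had an unadjusted p at or under 0.05, against 4.83% of all genes. Skeletal muscle RNA differed in the same tumors: the summed level of 10 muscle markers was 2567, 3475 and 6062 CPM in NK-depleted replicates 1, 2 and 3, against 124 to 417 in untreated Ptgs-/- tumors and 23.1 to 185 in Ptgs+/+ tumors, and 8 of the 10 were called higher after depletion. NK cell markers were at 13.2 to 13.7 CPM in NK-depleted tumors, with 9 of 9 called lower and Ncr1 and Prf1 at 0. Neutrophil markers were called higher in 2 of 8 cases, with 131 to 186 CPM summed against 70.1 to 101 in untreated Ptgs-/- tumors, and T cell markers lower in 1 of 9, with 17.2 to 26.9 against 27.5 to 78.4 CPM. In NK-depleted against untreated Ptgs-/- tumors 0.921% of all genes were called higher and 0.515% lower. The part of these cell type markers in the values of the 38 genes was not tested.

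**Figure D5:**
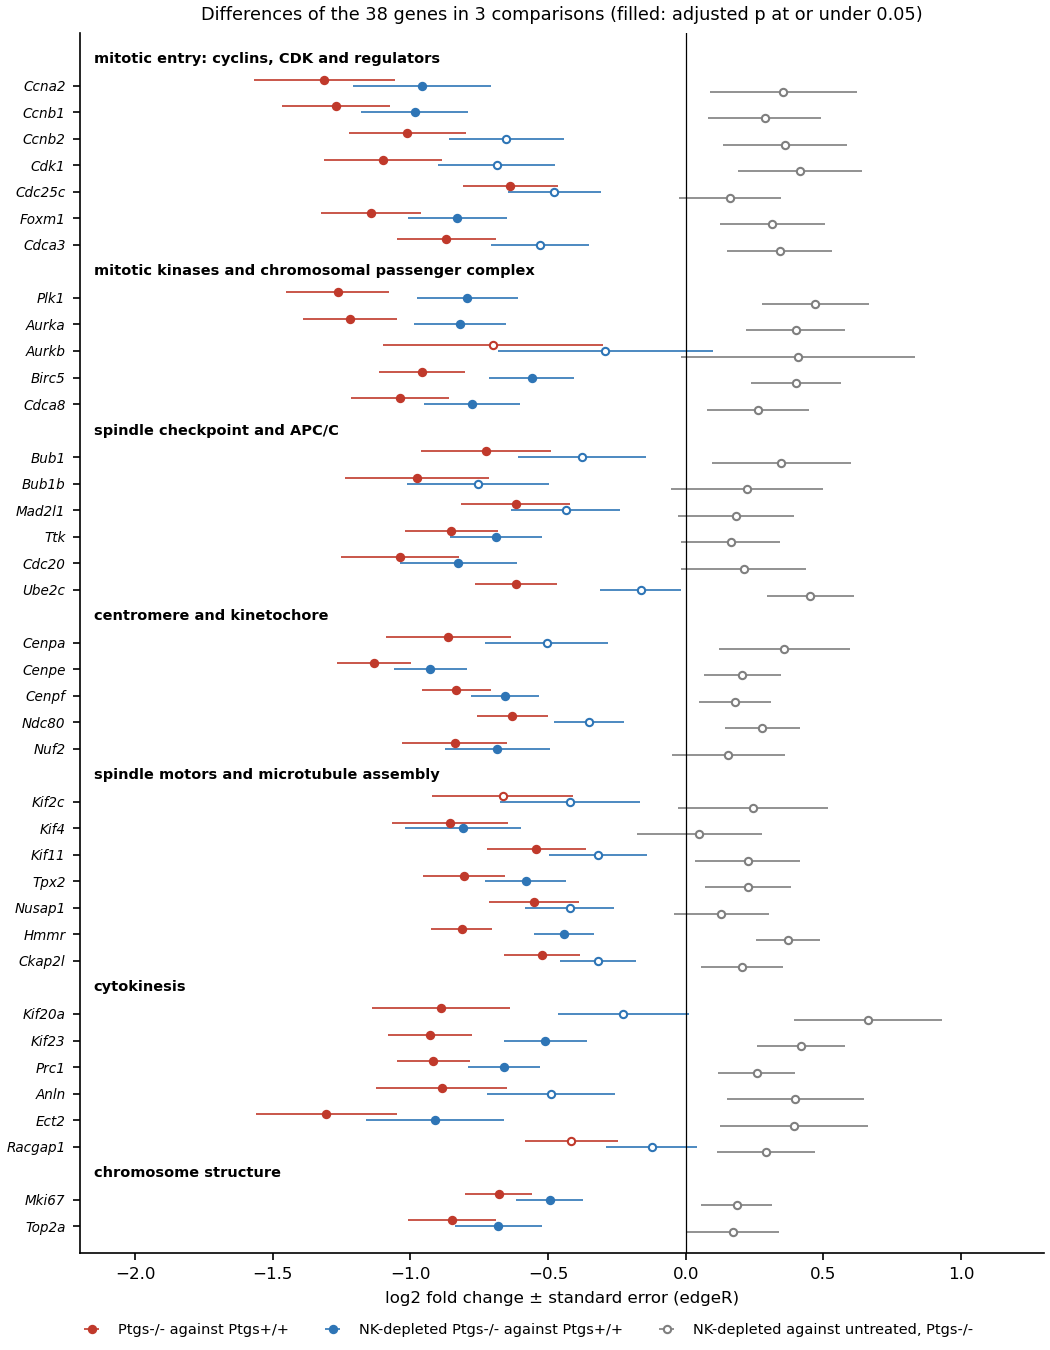
Log2 fold change ± standard error from edgeR for each of the 38 genes in the 3 comparisons, ordered by role, with filled points for an adjusted p at or under 0.05. Of the 38 genes, 35 are filled for Ptgs-/- against Ptgs+/+ tumors, 20 for NK-depleted Ptgs-/- against Ptgs+/+ tumors and 0 for NK-depleted against untreated Ptgs-/- tumors, where the points lie between 0.05 and 0.66.

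Ptgs-/- tumors of NK-depleted mice remained below Ptgs+/+ tumors. All 38 genes had a negative log2 fold change, as had 50.7% of all genes, and Racgap1, the nearest to 0, turned positive when Ptgs+/+ replicate 2 or NK-depleted replicate 3 was left out. By edgeR's quasi-likelihood test 20 were called lower and 0 higher, where 5.87% of all genes were called lower and 6.63% higher. The median log2 fold change was −0.57, with a range from −0.98 to −0.12, and in 22 genes every NK-depleted library was below every Ptgs+/+ library, as in 12% of all genes. By the rule with a log2 fold change of at least 1.5, 0 of the 38 were called, against 0.701% of all genes. This comparison shares its Ptgs+/+ tumors with the first and its NK-depleted tumors with the second, so the 3 are not independent. Of cell type markers, muscle was called higher in 10 of 10 cases here, T cell markers in 4 of 9 (17.2 to 26.9 CPM summed in NK-depleted tumors), macrophage markers in 3 of 10 with 1 lower, and fibroblast markers in 2 of 10. Neutrophil markers were lower in 5 of 8 and higher in 1 (131 to 186 CPM summed), and NK cell markers were lower in 5 of 9. The part of these markers was not tested.

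By role, 3 of 7 entry genes were called lower against Ptgs+/+ tumors (median −0.69), 4 of 5 kinase and passenger genes (−0.78), 2 of 6 checkpoint and APC/C genes (−0.56), 3 of 5 kinetochore genes (−0.66), 3 of 7 spindle genes (−0.42), 3 of 6 cytokinesis genes (−0.50) and 2 of 2 chromosome structure genes (−0.59). The largest falls were those of Ccnb1 (−0.98 ± 0.19 SE), Ccna2 (−0.96 ± 0.25) and Cenpe (−0.93 ± 0.13), with adjusted p of 0.00697, 0.0291 and 0.00105 (edgeR's quasi-likelihood test). Ccnb1 and Cenpe did not overlap between the groups, whereas NK-depleted replicates 1 and 2 exceeded Ptgs+/+ replicate 3 for Ccna2. Among the other genes followed in full, Foxm1 fell by 0.83, Plk1 by 0.79, Top2a by 0.68, Birc5 by 0.56 and Mki67 by 0.49. Cdk1 had a log2 fold change of −0.69 (adjusted p = 0.057) and Aurkb one of −0.29 (adjusted p = 0.692), and neither was called (edgeR's quasi-likelihood test). Racgap1 and Ube2c were closest to the Ptgs+/+ level, at −0.12 and −0.16 (adjusted p = 0.694 and 0.532, same test).

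The count of 20 leaned on single libraries. Without NK-depleted replicate 3 it was 6, with a median of −0.45, and without NK-depleted replicate 1 it was 9, while the share of all genes called lower went from 5.87% to 2.41% and 2.7%. Leaving out Ptgs+/+ replicate 1 gave 10 and leaving out Ptgs+/+ replicate 2 gave 9, with 3.63% and 3.57% of all genes. Leaving out Ptgs+/+ replicate 3 gave 29, with 7.18% of all genes. The calls over all genes thus went down and up in the same fits. Within the first title code, 14 genes were called, with 4.83% of all genes and a median of −0.61. The genes called under each of the 21 model fits tried were Ccnb1, Aurka, Cdca8, Cenpe, Cenpf and Prc1, and 14 of the 20 lost their call when some library was left out, Mki67, Top2a, Plk1 and Foxm1 among them (adjusted p without NK-depleted replicate 3 of 0.103, 0.0812, 0.0759 and 0.0507, edgeR's quasi-likelihood test). Of the other G2/M genes 29 were lower than in Ptgs+/+ tumors and 0 higher (median −0.54), led by Ska1 (−1.0) and Kntc1 (−0.94). Of the G1/S genes 11 were lower and 0 higher (median −0.36), led by Rrm2 (−0.95) and Ccne2 (−0.79). Over all genes 5.87% were called lower. Against untreated Ptgs-/- tumors 0 genes of either list were called, and the medians were 0.21 and 0.16. At an unadjusted p of 0.05, 9 and 1 were higher, where 4.32% of all genes were (edgeR's quasi-likelihood test).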

How the data were processed

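RNA of 10 whole tumors was sequenced as 3′ tag (QuantSeq) libraries, where long genes gain no extra counts. After trimming with BBDUK, fqtrim and cutadapt and alignment to GRCm38 with STAR, the authors deposited raw counts per gene from featureCounts on Ensembl annotation, with no normalization and 1 column per tumor. Whether counting used strand or reads with several matches is not given in the sources used here, so overlapping genes and genes with near-identical copies are uncertain.

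Of 45706 gene rows, 45143 were named by GENCODE M21, which also gave coordinates. The analysis used edgeR 4.0.16 under R 4.3.3. After filterByExpr 14550 genes were left. With TMM factors of 0.963 to 1.04, the quasi-likelihood test compared 3 groups in 1 model of all 10 libraries, with Benjamini-Hochberg adjustment over all genes tested. CPM were computed on library totals and scores as the mean log2(CPM + 1). The pipeline was tested on simulated data, with changes placed in the untreated Ptgs-/- group alone and larger than the median change of the 38 genes. It was not tested on changes as small as those after NK cell depletion. Groups came from the submitters' labels. The 38 genes and all other lists were chosen with earlier results of these data known, so lists are given as counts and medians beside those of all genes, with no test of a list. Given in full were 8 core genes, any gene called between the Ptgs-/- groups, and the 3 largest rises and falls among called genes of each comparison. Of other cell cycle lists, the 3 genes of highest mean CPM and the 2 largest rises and falls were named. Alternatives were DESeq2 1.42.0, each library left out, the title code as a covariate, libraries of the first code, a block by label number, a fit of the compared groups alone, a likelihood ratio test, and other scalings, filters, thresholds and pseudocounts. All precision given rests on counting 3 or 4 libraries a group.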

Additional observations from a re-analysis of the deposited data

How the results depend on the processing

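Under the rule that also asks for a log2 fold change of 1.5, the counts of called genes against Ptgs+/+ tumors went to 0 for untreated and 0 for NK-depleted Ptgs-/- tumors. With 1 library left out at a time they ran from 26 to 38 and from 6 to 29, and stayed at 0 between the Ptgs-/- groups. For untreated tumors, 7.65% of all genes were called lower without Ptgs+/+ replicate 1 (26) and 13.4% without Ptgs+/+ replicate 3 (38). For NK-depleted tumors, the share was 2.41% without NK-depleted replicate 3 (6) and 7.18% without Ptgs+/+ replicate 3 (29). Of the calls, 11 of 35 and 14 of 20 were lost in at least 1 of these fits. Whether the samples' label numbers pair tumors cannot be decided with 3 or 4 libraries a group. Of 11 pairs with the same number, 4 had deviations that correlated above 0.1 (range −0.30 to 0.39). Pairs with different numbers ran from −0.47 to 0.19, and several of these also lay above 0.1, so the count does not set the numbered pairs apart. With a replicate block by label number the counts were 32, 0 and 20, where 10.5%, 0.454% and 5.37% of all genes were called lower. DESeq2 gave 35, 0 and 24 (11.6%, 1.44% and 7.53% of all genes lower) and library size alone 32, 0 and 20 (8.88%, 0.564% and 5.18%). Kif4 and Racgap1 changed sign. For Kif4 between the Ptgs-/- groups the log2 fold change was −0.030 with the title code as a term and ran from −0.11 (without Ptgs-/- replicate 1) to 0.17 with a library left out, −0.10 without NK-depleted replicate 2 included. For Racgap1 in NK-depleted against Ptgs+/+ tumors it ran from −0.23 to 0.030 with a library left out, 0.023 without Ptgs+/+ replicate 2 included and highest without NK-depleted replicate 3. The cause was not tested. Of 760 values of single genes per comparison under alternatives, 679, 757 and 663 kept their direction and side of the threshold. With 3 or 4 libraries a group, the 95% intervals between the Ptgs-/- groups spanned −0.52 to 1.34 over the 38 genes. Intervals and floors cover counting error or spread between these libraries only.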

Other observations

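Inhibitors of the cell cycle and genes of resting cells, 13 in all, were mostly uncalled. In untreated Ptgs-/- against Ptgs+/+ tumors 11 of the 13 had a positive log2 fold change, as had 7172 of 14550 genes. Their median was 0.14, and 1 was called higher and 1 lower, where 12.1% and 11% of all genes were. In NK-depleted Ptgs-/- against Ptgs+/+ tumors 9 of the 13 were positive, as were 7178 of all genes. Again 1 was called higher and 1 lower, where 6.63% and 5.87% of all genes were. Ccng1, a target of p53, was at 87.1, 106, 87.6 and 95.5 CPM in Ptgs+/+ tumors, 140.2, 125 and 135 in Ptgs-/- tumors and 172, 168 and 136 in NK-depleted ones, with both Ptgs-/- groups above all Ptgs+/+ libraries. It rose by a log2 fold change of 0.45 (SE 0.12, adjusted p = 0.017) in untreated and 0.73 (SE 0.11, adjusted p = 0.00197) in NK-depleted Ptgs-/- tumors (edgeR's quasi-likelihood test). Cdkn1a, which encodes the CDK inhibitor p21, had 265 ± 45.1 CPM in Ptgs+/+ tumors (SD, n = 4), then 368 ± 46.5 in untreated and 375 ± 28.5 in NK-depleted Ptgs-/- tumors (SD, n = 3 each), and missed the threshold (adjusted p = 0.0616 and 0.0584 against Ptgs+/+ tumors, same test). Cdkn2d, which encodes the inhibitor p19INK4d, fell by 0.91 in untreated and 0.72 in NK-depleted Ptgs-/- tumors (adjusted p = 0.000576 and 0.00311, edgeR's quasi-likelihood test). The other 10 genes were not called in any of the 3 comparisons.

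Ptgs+/+ replicate 3 was not lower for all mitotic genes alike. Its level over the median of the other 3 Ptgs+/+ libraries was 0.235 for Aurkb, 0.459 for Kif2c, 0.520 for Ect2 and 0.536 for Anln, under 0.7 for 12 of the 38 genes and over 0.9 for 15, among them Kif20a at 1.25 and Ttk at 1.1. By Dixon's test for 4 values, none of 39 groups of Ptgs+/+ libraries, the 38 genes and their score, had a library past the critical value at 95%.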
